A study of Homo sapiens with 38 samples.

Results

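ATP-binding cassette (ABC) transporters outside the peroxisome were taken as the protein-coding genes whose symbol is ABC followed by one of the family letters A, B, C, E, F or G and a number. This gave 41 genes in each table, out of 18029 genes in the Hep3B screen, 18036 in the SNU-398 screen and 58735 annotated genes in the RNA-seq. The ABCD genes, which include peroxisomal carriers, and TAP1, TAP2 and CFTR carry other symbols and were outside the set. So was 1 non-coding gene that matched the symbol pattern.

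ABC transporters bind and hydrolyse ATP to move lipids, bile salts, drug conjugates, metals and other molecules across membranes. In liver they load bile, export cholesterol and pump drugs out of the cell, and ABCB1, ABCC1 to ABCC3 and ABCG2 are known as drug efflux pumps. The ABCE and ABCF proteins have the ATPase domains but no membrane part and act in translation.

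The data were pooled CRISPR knockout screens in the hepatocellular carcinoma (HCC) lines Hep3B and SNU-398 and RNA-seq of PSTK-KO against control cells labelled Hep3B. Both screen lines carried Cas9 and the TKOv3 guide library, and had 8 groups of 2 libraries. The inhibitor groups received Sorafenib, Regorafenib or Lenvatinib (multikinase inhibitors), Erastin (a blocker of cystine uptake that induces ferroptosis), or Abemaciclib or Palbociclib (CDK4/6 inhibitors), each at the concentration that inhibits 20% (IC20), for 14 days. T1 libraries were taken as vehicle cells at day 14 and T0 libraries were harvested at day 0 before treatment. The RNA-seq had 3 PSTK-KO libraries (genotype PSTK-/-), made with a dual-guide lentivirus in Cas9-expressing cells, and 3 control libraries (genotype wild type). The genotype labels do not say whether the control cells carried Cas9 or virus, and effects of either were not tested. PSTK phosphorylates the seryl-tRNA used for selenocysteine. Concentrations are not compared between inhibitors, so their values stand side by side only.

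RNA-seq libraries held 15404153 to 16851558 counts. The targeted transcript was not lower: PSTK had 0.650, 0.706 and 0.824 FPKM in PSTK-KO cells, against 0.777, 0.828 and 0.668 FPKM in control cells (log2 difference -0.06, SE 0.19, adjusted p = 0.84, edgeR with Benjamini-Hochberg adjustment). Where the guides cut was not analysed here, so this level does not check the knockout. Hepatocyte markers were mostly absent from the libraries labelled Hep3B: 7 of 10 stayed under 0.15 FPKM in every library, among them AFP, APOA1 and TTR, and the summed level of all 10 was 2.28 to 2.84 FPKM in PSTK-KO cells and 3.92 to 4.78 FPKM in control cells. Of 10 blood, fibroblast and endothelial markers, 4 were tested: COL1A1, PDGFRB, VWF and CDH5. All 4 were lower in PSTK-KO cells, where 17.2% of all genes fell. The sums over the 10 markers were 5.68 to 5.97 FPKM in PSTK-KO cells against 8.20 to 8.83 FPKM in control cells. PTPRC and CD3E were at 0. Their part in the results below was not tested.

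In the screens, the 2 libraries of a group agreed closely. The mean chi-square per guide between them, with 1 degree of freedom and counts taken in pairs because most were even, was 1.26 to 1.94 in 15 of 16 groups, where sampling alone gives about 1. The exception was SNU-398 Erastin, at 17.2. SNU-398 Erastin replicate 2 correlated with the Hep3B T1 library at 0.49 in its guide changes since T0, whereas the other SNU-398 libraries lay between -0.05 and 0.09. It also correlated with its own line, at 0.49 with Erastin replicate 1 and 0.34 with T1 replicate 1, so it resembled both lines. That library was left out of the results, and values with it are given in the closing section. Nothing in the labels says that the 2 libraries of a group came from separate cultures, so the spread between them may be technical. NormZ p-values rest on the spread over guides and genes, and edgeR p-values on the spread between libraries. Neither can be taken to measure the spread between cultures.

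Upstream sequence of 3 carriers with large RNA changes is shown for orientation, as the 250 bases before the annotated start in RefSeq (GRCh38.p14), read 5′ to 3′ on the gene's strand. Capitals mark matches, on either strand, to the nuclear receptor half-site AGGTCA, the E-box CACGTG, the GC box GGGCGG, the CCAAT box or the antioxidant response element core TGACNNNGC. ABCA1 lies on the minus strand (chr9:104928156-104928405), ABCG2 on the minus strand (chr4:88231627-88231876) and ABCB1 on the minus strand (chr7:87713296-87713545).
ABCA1: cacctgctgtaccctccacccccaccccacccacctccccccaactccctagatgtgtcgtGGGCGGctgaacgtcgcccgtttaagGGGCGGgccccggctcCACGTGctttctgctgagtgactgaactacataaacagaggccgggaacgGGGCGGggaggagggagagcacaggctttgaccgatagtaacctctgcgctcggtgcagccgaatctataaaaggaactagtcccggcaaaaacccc
ABCG2: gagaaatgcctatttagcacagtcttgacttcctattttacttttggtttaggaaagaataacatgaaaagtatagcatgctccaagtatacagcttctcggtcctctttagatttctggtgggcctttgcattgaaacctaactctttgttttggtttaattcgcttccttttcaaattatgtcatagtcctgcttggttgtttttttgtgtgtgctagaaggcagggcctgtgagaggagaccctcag
ABCB1: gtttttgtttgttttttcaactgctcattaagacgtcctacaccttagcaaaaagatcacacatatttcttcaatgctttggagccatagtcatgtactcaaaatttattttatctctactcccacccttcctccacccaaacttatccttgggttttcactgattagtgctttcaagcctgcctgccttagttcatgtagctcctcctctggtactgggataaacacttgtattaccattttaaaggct
The ABCA1 window held 3 GC boxes and 1 E-box. The ABCG2 and ABCB1 windows held none of the 5 motifs, which says only that those letters are not in these windows. Of the 41 members, 32 had an entry in the table. GC boxes occurred in 46.9% of the members' windows and in 42.6% of all 35116 windows, and E-boxes in 12.5% and 6.34%. CCAAT boxes occurred in 15.6% of the members' windows and 32% of all windows, AGGTCA in 3.12% and 12.1%, and TGACNNNGC in 15.6% and 10.9%.

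ABC genes differed in both directions between the libraries labelled PSTK-KO and control. Of 31 members that passed the filter on low counts, 5 rose and 8 fell (adjusted p under 0.05). Of all 15370 genes tested, 15.6% rose and 17.2% fell, so the members' share was near the background. These shares over all genes include non-coding genes. Of the 12488 protein-coding genes tested, 2224 rose and 2419 fell. The members' median log2 difference was -0.06, against 0.00 over all genes. The other 10 members never exceeded 15 counts in a library and were not tested, among them the bile salt pump ABCB11, the phospholipid flippase ABCB4 and the sterol pair ABCG5 and ABCG8.

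**Figure D1:**
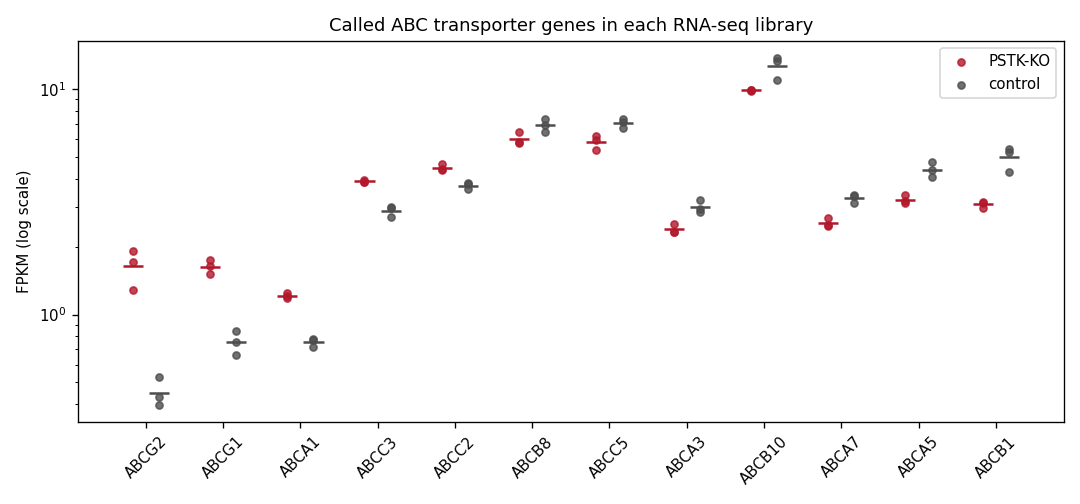
FPKM on a log scale (y axis) of the 12 called ABC genes with a group mean of at least 1 FPKM (x axis, from the largest rise to the largest fall), 1 point per library and a bar at each mean, with PSTK-KO left of control. ABCG2 lies between 1.29 and 1.91 FPKM in PSTK-KO cells, above every control library, and ABCB8 is the gene shown whose groups overlap.

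Among the drug efflux pumps, ABCG2, which exports many drugs and urate, had 1.29, 1.70 and 1.91 FPKM in PSTK-KO cells, against 0.397, 0.526 and 0.430 FPKM in control cells. All PSTK-KO libraries were above all control libraries. The log2 difference was 1.85 (SE 0.20, adjusted p = 3.38e-09, edgeR). ABCB1, or P-glycoprotein, moved the other way, with 3.11, 3.17 and 2.95 FPKM in PSTK-KO cells against 5.39, 5.25 and 4.30 FPKM in control cells. Its groups did not overlap and its log2 difference was -0.70 (SE 0.10, adjusted p = 6.88e-07, edgeR). ABCC3, which exports organic anions across the basolateral membrane, had 3.86, 3.87 and 3.95 FPKM in PSTK-KO cells and 2.96, 2.70 and 2.99 FPKM in control cells, a log2 difference of 0.43 (SE 0.08, adjusted p = 4.16e-05, edgeR). ABCC2, which exports conjugates into bile, had 4.38, 4.63 and 4.41 FPKM in PSTK-KO cells and 3.77, 3.83 and 3.59 FPKM in control cells (log2 difference 0.26, SE 0.08, adjusted p = 0.00892, edgeR), and lost its call without PSTK-KO replicate 2 (adjusted p = 0.0558). Both groups were apart for ABCC3 and for ABCC2. ABCC1 had the highest level per length of the efflux pumps, 20.5 ± 0.29 FPKM in PSTK-KO cells and 22.1 ± 1.22 FPKM in control cells (SD, n = 3 each), and did not pass the test (log2 difference -0.11, adjusted p = 0.111, edgeR). Of the 5 efflux pumps, 3 rose and 1 fell, where 15.6% of all genes rose and 17.2% fell.

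Of the 12 lipid and sterol carriers tested, 2 rose and 4 fell, where 15.6% of all genes rose and 17.2% fell. ABCG1, which delivers cholesterol to high-density lipoprotein, had 1.51, 1.74 and 1.64 FPKM in PSTK-KO cells, against 0.756, 0.660 and 0.845 FPKM in control cells. ABCA1, which loads cholesterol and phospholipid onto apolipoprotein A-I, had 1.20, 1.18 and 1.25 FPKM in PSTK-KO cells, against 0.716, 0.770 and 0.776 FPKM in control cells. Neither gene's groups overlapped, and the log2 differences were 1.11 (SE 0.15, adjusted p = 6.51e-07, edgeR) for ABCG1 and 0.68 (SE 0.12, adjusted p = 5.33e-05, edgeR) for ABCA1. ABCA5 fell, with 3.13, 3.17 and 3.39 FPKM in PSTK-KO cells and 4.06, 4.36 and 4.74 FPKM in control cells (log2 difference -0.44, adjusted p = 7.33e-06, edgeR). ABCA7, a phospholipid carrier, had 2.68, 2.47 and 2.49 FPKM in PSTK-KO cells and 3.12, 3.39 and 3.36 FPKM in control cells (log2 difference -0.38, adjusted p = 0.00122, edgeR). ABCA3, which fills lamellar bodies with surfactant lipid in lung, had 2.33, 2.52 and 2.33 FPKM in PSTK-KO cells and 3.21, 2.84 and 2.92 FPKM in control cells (log2 difference -0.33, adjusted p = 0.00887, edgeR), and lost its call without control replicate 1 (adjusted p = 0.0557). In each of these 3 genes the PSTK-KO libraries lay below all control libraries. ABCA8 was also called, with 0.050 ± 0.0051 FPKM in PSTK-KO cells and 0.131 ± 0.068 FPKM in control cells (SD, n = 3 each), but without control replicate 2 its adjusted p was 0.18 (edgeR).

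Of 4 mitochondrial ABCB genes, 2 fell and none rose, where 17.2% of all genes fell and 15.6% rose. ABCB10, an inner membrane carrier needed for heme synthesis, had 9.84, 9.83 and 9.86 FPKM in PSTK-KO cells, against 13.3, 13.7 and 10.97 FPKM in control cells (log2 difference -0.37, SE 0.07, adjusted p = 0.000214, edgeR). ABCB8 had 6.46, 5.77 and 5.80 FPKM in PSTK-KO cells and 7.34, 6.43 and 6.92 FPKM in control cells, groups that overlapped (log2 difference -0.20, adjusted p = 0.0209, edgeR). ABCB8 lost its call without control replicate 1 (adjusted p = 0.121), without PSTK-KO replicate 2 (0.112) and without PSTK-KO replicate 3 (0.105). Of the other ABCC genes, ABCC5, an exporter of cyclic nucleotides, had 5.35, 5.95 and 6.20 FPKM in PSTK-KO cells and 7.11, 7.37 and 6.72 FPKM in control cells (log2 difference -0.28, adjusted p = 0.000893, edgeR). ABCC6 was not called. It has near-identical pseudogene copies, and their effect on its counts was not tested.

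None of the 4 soluble ATPases passed the test, and their log2 differences ran between -0.06 and 0.06. Their levels per length were high: ABCF1, a translation initiation factor, averaged 26.0 ± 1.01 FPKM in PSTK-KO cells and 27.0 ± 0.75 FPKM in control cells, and ABCE1, which recycles ribosomes, averaged 25.3 ± 0.758 FPKM in PSTK-KO cells and 24.2 ± 1.43 FPKM in control cells (SD, n = 3 each).

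**Figure D2:**
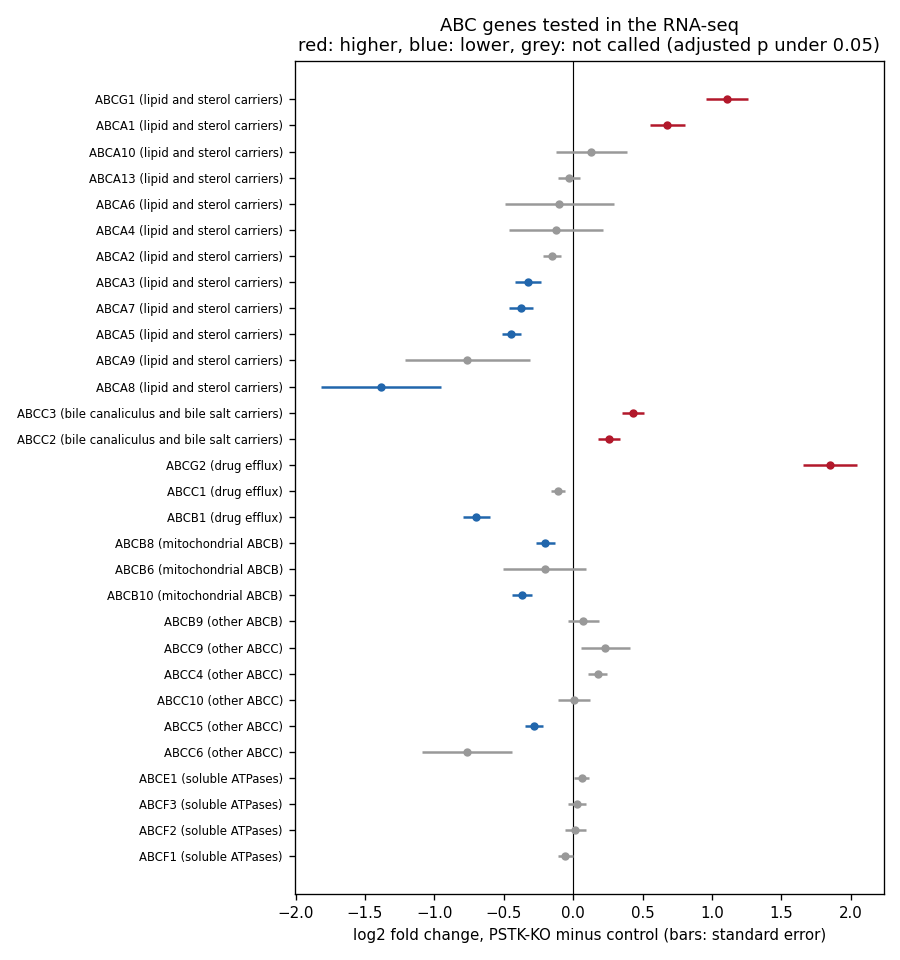
Log2 fold change, PSTK-KO minus control (x axis, with standard errors), of 30 of the ABC genes tested (y axis, by role). Red marks the 5 higher genes, blue the 8 lower genes and grey 17 genes not called; ABCG2 has the highest value at 1.85 and ABCA8, at low level, the lowest at -1.38.

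Of 8 tested regulators of ABC genes, 5 fell and 0 rose, where 17.2% of all genes fell and 15.6% rose. They included the hepatocyte factor HNF4A (log2 difference -0.67, adjusted p = 3.39e-06, edgeR) and the sterol receptor genes NR1H2 (-0.32, adjusted p = 0.000628) and NR1H3 (-0.36, adjusted p = 0.00913). Of 8 other hepatic drug and bile carriers tested, the uptake carrier SLCO2B1 fell by 2.78 on the log2 scale (adjusted p = 6.01e-13, edgeR), SLC51B fell by 0.68 (adjusted p = 0.00101) and ATP8B1 rose by 0.65 (adjusted p = 0.00416). Of 19 iron-sulfur cluster partners, 1 rose (HSCB, 0.39, adjusted p = 0.0249, edgeR) and 1 fell (FDXR, -0.36, adjusted p = 0.0389). Of 11 ribosome rescue and termination factors, 3 rose: ZNF598 (0.43, adjusted p = 3.49e-07, edgeR), DENR (0.18, adjusted p = 0.00822) and GSPT1 (0.14, adjusted p = 0.0216). Of the 6 tested ABC genes outside the set, ABCD3 fell (-0.35, adjusted p = 3.89e-06, edgeR) and TAP2 (0.29, adjusted p = 0.00554) and ABCD4 (0.24, adjusted p = 0.0384) rose.

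The screens asked which gene losses make HCC cells more or less abundant under each inhibitor. NormZ is a per-gene score over guides; a negative value means that cells with those guides were fewer under the inhibitor than in T1, and a gene was called at a one-sided p under 0.01. Over the 12 inhibitor screens and 492 member-screen pairs, 11 pairs were lower and 5 were higher. That is 2.24% and 1.02% of the pairs, against 1.68% and 0.838% of all gene-screen pairs. The smallest false discovery rate among them was 0.354, so none passed a correction over all genes. Of the 18 calls made here and in T1 against T0, 13 were lost when only guides with a mean count of at least 30 were used, and 5 were kept.

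In Hep3B, 2 members were lower under Regorafenib (1.85% of all genes were) and 2 under Palbociclib (1.93%), and none with Abemaciclib (1.66%), Sorafenib (1.66%), Erastin (1.65%) or Lenvatinib (1.83%). One gene, ABCB10, was higher under Palbociclib (0.71% of all genes were), and 0 members were higher under Sorafenib (0.777%), Regorafenib (0.804%), Lenvatinib (0.732%), Erastin (1.05%) or Abemaciclib (0.882%). In SNU-398, 2 members were lower under Sorafenib (1.8%), 1 under Regorafenib (1.59%), 1 under Erastin (1.61%), 3 under Abemaciclib (1.49%) and 0 under Lenvatinib (1.55%) or Palbociclib (1.59%). Higher members in that line numbered 1 with Lenvatinib (0.815%), 2 with Sorafenib (0.848%), 1 with Erastin (0.865%) and 0 with Abemaciclib (0.937%), Palbociclib (0.948%) or Regorafenib (0.688%).

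**Figure D3:**
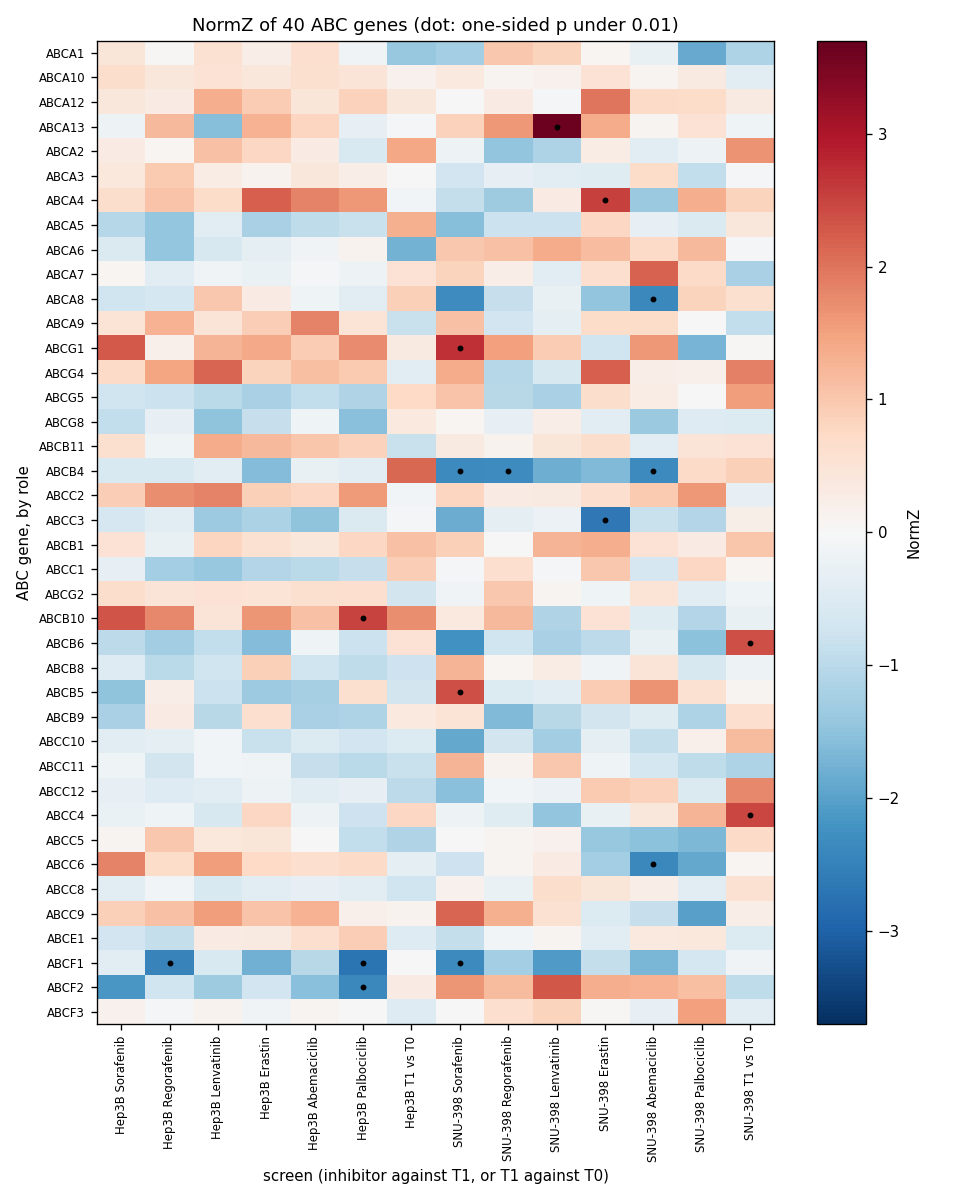
NormZ (colour, red above 0 and blue below 0) of 40 ABC genes (rows, by role) in the 6 inhibitor screens against T1 and in T1 against T0 of each line (columns); dots mark one-sided p under 0.01. ABCA13 under Lenvatinib in SNU-398 is the highest value at 3.64, and ABCF1 under Palbociclib in Hep3B the lowest at -2.71.

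The soluble ATPase ABCF1 was called lower in both lines. Its summed guides were at 1.05 and 1.24 CPM (counts scaled to equal library size) under Palbociclib in Hep3B and 2.88 and 3.25 CPM under Regorafenib, against 12.6 and 9.97 CPM in T1. NormZ was -2.71 with Palbociclib and -2.47 with Regorafenib. ABCF1 in SNU-398 was at 6.98 and 6.06 CPM under Sorafenib, against 12.7 and 14.9 CPM in T1 (NormZ -2.37). Over the 6 screens of a line, which share their T1 libraries, its NormZ ran between -2.71 and -0.38 in Hep3B and between -2.37 and -0.65 in SNU-398. Of 4 ABCF1 guides per line, 2 had a mean T1 count of at least 30. All 3 calls were lost with such guides alone, at NormZ of -2.25 for Palbociclib, -1.86 for Regorafenib and -1.55 for Sorafenib. Both Hep3B calls were also lost without replicate 1 (-2.29 for Palbociclib and -2.01 for Regorafenib), and the SNU-398 call without replicate 2 (-1.67).

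ABCF2, a related ATPase, went in different directions in the lines, a pattern singled out after its values were seen. In Hep3B it was at 7.57 and 6.37 CPM under Palbociclib, against 19.5 and 18.2 CPM in T1 (NormZ -2.40), and its NormZ ran between -2.40 and -0.70 over the screens. In SNU-398 it was at 35.4 and 30.3 CPM under Lenvatinib, against 17.4 and 19.4 CPM in T1, and its NormZ ran between 1.11 and 2.30. The difference between lines did not pass a normal test on the difference in NormZ. For ABCF2 the smallest p adjusted over all shared genes was 0.803, under Palbociclib. Of 246 member-inhibitor pairs, 0 passed that adjustment, and the smallest adjusted p was 0.42, for ABCA13 under Lenvatinib. Unadjusted, 12 pairs had a p under 0.05. The share over all genes was not computed, so these 12 are not read as a result.

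**Figure D4:**
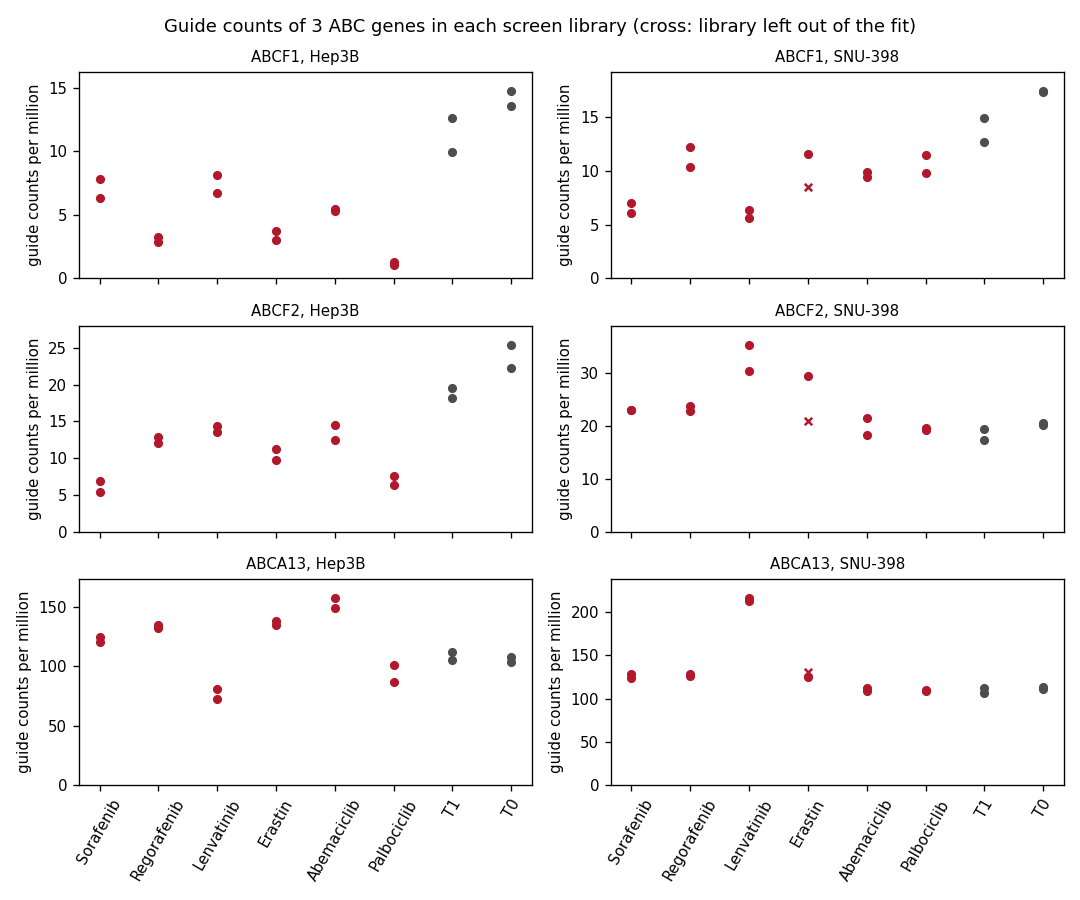
Guide counts in CPM summed per gene (y axis, from 0) for ABCF1, ABCF2 and ABCA13 in each library of Hep3B (left) and SNU-398 (right), by group, with inhibitors in red, T1 and T0 in grey and a cross for the library left out. Both ABCF1 libraries of every inhibitor in Hep3B lie below its T1 libraries, and ABCA13 in SNU-398 stands out under Lenvatinib.

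ABCA13, a large ABCA protein, was the highest-ranked gene of the SNU-398 Lenvatinib screen (NormZ 3.64, false discovery rate 0.925). Its guides were at 213.1 and 216.6 CPM under Lenvatinib, against 106.1 and 112.2 CPM in T1. All 4 guides were higher in both libraries, and guide 3 had the largest change, at 127.4 and 129.95 CPM under Lenvatinib against 41.03 and 43.9 CPM in T1. In Hep3B the same inhibitor gave 72.8 and 81.2 CPM, against 105.2 and 112.5 CPM in T1 (NormZ -1.56).

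ABCB4 was lower in 3 SNU-398 screens, on few counts. It had 0.287 and 0.289 CPM under Sorafenib, 0.341 and 0.57 CPM under Regorafenib and 1.69 and 1.51 CPM under Abemaciclib, against 6.49 and 4.29 CPM in T1, with NormZ of -2.36, -2.34 and -2.35. Only 1 of its 4 guides had a mean T1 count of at least 30, and all 3 calls were lost without replicate 1 (NormZ -1.62 for Sorafenib, -1.60 for Regorafenib and -1.26 for Abemaciclib). The other calls in SNU-398 were ABCA8 (NormZ -2.38) and ABCC6 (-2.38) lower under Abemaciclib, ABCC3 lower (-2.65) and ABCA4 higher (2.51) in the single Erastin library used, and ABCG1 (2.71) and ABCB5 (2.37) higher under Sorafenib. ABCG1, which also rose in PSTK-KO cells, was at 69.5 and 74.4 CPM under Sorafenib, against 44.9995 and 43.87 CPM in T1. Only 1 of the 4 ABCG1 guides had a mean T1 count of at least 30, and it held 93.8% of the T1 counts. ABCG1 NormZ ran between -1.72 and 2.71 over the SNU-398 screens. ABCA8 and ABCA4 also had 1 such guide each, ABCC3 and ABCC6 had 2 each and ABCB5 had 3. ABCB10 in Hep3B under Palbociclib was at 131.4 and 135.6 CPM, against 99.1 and 98.0 CPM in T1 (NormZ 2.51).

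The 5 drug efflux pumps gave 1 call in 12 screens, where 1.68% of all gene-screen pairs were called lower and 0.838% higher. That call was ABCC3, lower under Erastin in SNU-398, at 7.64 CPM in the 1 library fitted against 26.0 and 22.4 CPM in T1. NormZ takes its spread from guides of similar count and not from replicates, here as in the screens with 2 libraries. With the second Erastin library included ABCC3 was no longer called. ABCC1 and ABCC2 guides were very uneven: 1 guide held 99.1% of the ABCC1 counts and 99.6% of the ABCC2 counts in Hep3B T1, and 91.1% for ABCB1. ABCC1 NormZ ran between -1.41 and -0.31 in Hep3B and between -0.62 and 1.001 in SNU-398. ABCC2 ran between 0.76 and 1.83 in Hep3B and 0.29 and 1.59 in SNU-398, and ABCB1 between -0.26 and 0.80 in Hep3B and 0.01 and 1.34 in SNU-398. ABCG2 could not be measured: its 3 Hep3B guides had 0 counts in both T1 libraries, which allows up to 0.122 and 0.248 CPM (3 counts per library, counting error only), and at most 1.39 CPM in T0. In SNU-398 T1 its 3 guides summed to a mean of 8 counts, and 0 of them reached 30. The lack of a call for ABCG2, 1 of the 5 pumps counted, is therefore not read as a result.

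Guide loss limited the whole set. Of the members' 150 guides in Hep3B, 60 (40.0%) had a mean T1 count of at least 30, against 43.3% of all guides, and 19 of 41 members had at least 2 such guides. In SNU-398 it was 55 of 151 guides (36.4%), against 43.3% of all guides, and again 19 of 41 members. The most abundant guide held a median of 80.5% of a member's T1 counts in Hep3B and 76.0% in SNU-398, against 84.9% and 80.6% over all genes.

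T1 against T0 gives changes over 14 days without inhibitor. Of the members' guides in Hep3B, 38.0% were at 0 in both T1 libraries against 6.0% in both T0 libraries, and in SNU-398 17.2% against 9.27%. Over all guides the shares were 36.3% against 2.90% in Hep3B and 22.8% against 9.09% in SNU-398. The T1 libraries held fewer counts than the T0 libraries. Hep3B T1 held 24555074 and 12096140 against 46376708 and 27379348 in T0, and SNU-398 T1 held 21983238 and 11558112 against 46043970 and 27184564. How far depth raised the shares at 0 was not tested. By NormZ, 0 members were lower in Hep3B (1.05% of all genes were) and 0 higher (1.2%). In SNU-398, 0 were lower (1.31%) and 2 higher (1.01%): ABCC4, an exporter of cyclic nucleotides, at 25.2 and 27.8 CPM in T1 against 18.8 and 18.5 CPM in T0 (NormZ 2.47), and ABCB6, a porphyrin carrier, at 11.99 and 13.6 CPM in T1 against 8.39 and 8.13 CPM in T0 (NormZ 2.38). ABCB6 lost its call without replicate 1 and ABCC4 without replicate 2, and neither was called with the guide minimum. ABCE1, which cells need for ribosome recycling, was at 4.995 and 3.43 CPM in T1 against 6.57 and 7.29 CPM in T0 in Hep3B (NormZ -0.48).

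A gene-level edgeR test on the same counts called large shares of all genes. In Hep3B it called, of 40 tested members, 32 with Abemaciclib (75.8% of all genes), 29 with Palbociclib (65.6%), 30 with Sorafenib (76.9%), 29 with Regorafenib (61.8%), 33 with Lenvatinib (72.7%), 31 with Erastin (68.7%) and 27 in T1 against T0 (62.6%). In SNU-398 it called 12 with Abemaciclib (27.8%), 13 with Palbociclib (40.7%), 29 with Sorafenib (56.7%), 22 with Regorafenib (55.9%), 29 with Lenvatinib (61.1%), 19 with Erastin (50.2%) and 15 in T1 against T0 (39.3%). With shares this high over all genes, these counts are not read as results about the ABC genes.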

How the data were processed

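Guide counts and gene counts were deposited by the authors as whole numbers, and FPKM as the authors' values per gene; the deposited fold change and p-value columns of their own comparisons were not used. Per the labels, Bowtie2, HISAT2 2.0.5 and featureCounts 1.5.0-p3 were used; the build named there, mm9, goes against the human gene identifiers. NormZ was recomputed by the steps of DrugZ: counts scaled to 10000000 per library, a pseudocount of 5, SD from windows of 1000 guides, libraries compared by number, control guides removed. SNU-398 Erastin replicate 2 was left out. Gene counts were tested with edgeR 4.0.16 (R 4.3.3, TMM, filterByExpr, quasi-likelihood test, Benjamini-Hochberg). CPM values are TMM-scaled gene sums except single guides, which are per library total. Screen libraries held 11198022 to 46376708 counts. Libraries with the same replicate number shared little deviation from their group means, with r between -0.06 and 0.04 over the screen groups compared. The edgeR fits therefore did not pair samples by number. In every screen group, replicate 1 held more counts than replicate 2. The tests were checked on simulated data. Members and lists were chosen with earlier results of these data known. Genes named with values were the efflux pumps, screen calls, ABCE1 and called RNA members with a group mean of at least 1 FPKM (6 largest rises and falls), plus 2 to 4 genes per other list; ABCA8, ABCB8 and the ABCF2 pattern were singled out after their values were seen. A member that enters the counts is not reported here by name. DESeq2 1.42.0 and limma 3.58.1 served as alternatives.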

Additional observations from a re-analysis of the deposited data

How the results depend on the processing

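The RNA calls, 5 up and 8 down, became 3 and 2 with limma on log2(FPKM + 1) and 3 and 3 with a pseudocount of 0.1; they stayed within 1.5 times in every other alternative, leaving out a library included (4 to 6 up, 6 to 11 down), and the replicate block gave 6 and 9. With both limma pseudocounts, ABCA1, ABCC2, ABCA3, ABCA8, ABCB8, ABCB10 and ABCC5 lost their calls. ABCA7 lost its call with log2(FPKM + 1) only. No member changed direction past the threshold. NormZ calls lower in Hep3B, 4, numbered 0 with guides of mean count at least 30 and 1 to 3 without a replicate; in SNU-398, 7 numbered 3 to 7 without a replicate. Calls higher in Hep3B, 1, numbered 0 with a pseudocount of 1, 2 with median-of-ratios scaling and 3 with the guide minimum; in SNU-398, 4 numbered 1 with the guide minimum and 2 to 5 without a replicate. Calls higher in SNU-398 T1 against T0, 2 (ABCB6 and ABCC4), numbered 1 with the guide minimum, where neither of these was called, and 1 without either replicate. Without the replicate block, NormZ calls lower were 3 in Hep3B and 7 in SNU-398. With Erastin replicate 2, NormZ calls in SNU-398 were 6 lower and 4 higher. Adding it took edgeR calls in SNU-398 to 80 from a sum of 124 for inhibitors and to 6 from 15 for T1 against T0. The causes were not tested. With the replicate block, edgeR calls summed to 184 in Hep3B and 124 in SNU-398. Low guide counts limit the screens: 40.0% of the members' guides in Hep3B and 36.4% in SNU-398 had a mean T1 count of at least 30.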
